A study of Mus musculus with 6 samples.

Results

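The genes described here are 9 members of the transforming growth factor beta (TGF-beta) system in mouse ovary: the ligands Tgfb1, Tgfb2 and Tgfb3, the receptors Tgfbr1 and Tgfbr2, the latent TGF-beta binding proteins Ltbp1 and Ltbp2, and the matricellular genes Thbs1 and Postn. They were chosen by name and found by NCBI Gene ID, which gave 9 of the 45679 gene symbols in the files, each with 1 row per library. Messenger RNA of whole ovary was sequenced from wild type BDF1 mice, a hybrid laboratory strain. Libraries labelled young PBS came from mice of 8 weeks injected with PBS, the vehicle, and those labelled old PBS from mice of 65 weeks injected with PBS. Those labelled old MIT-001 came from mice of 65 weeks given MIT-001 at 0.5 mg/kg into the abdomen. MIT-001 is a small molecule that scavenges reactive oxygen species in mitochondria. Treatment lasted 7 days in every group, PBS included. Each group had 2 libraries, and the labels do not say how many animals gave a library, so p-values measure only the spread between these libraries, which may be technical.

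TGF-beta ligands are secreted in a latent form, held by their own propeptide and tethered to the matrix by latent TGF-beta binding proteins, and must be released before they act. The released ligand binds the type II receptor, which recruits and phosphorylates the type I receptor, and the type I receptor then phosphorylates SMAD2 and SMAD3, which enter the nucleus with SMAD4. In the ovary the pathway takes part in follicle growth and luteal function, and in many tissues it drives fibroblasts to deposit matrix, the process called fibrosis. Whole ovary mixes oocytes, follicle cells, stroma, vessels and immune cells, so fewer cells of a type and less RNA per cell cannot be told apart.

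Between the 2 PBS groups the age labels went against marker genes, so every group is named as labelled and directions are stated between labels. The summed TPM (an abundance unit scaled for gene length and library) of 10 oocyte genes was 35.6 to 298 in the libraries labelled young PBS, 454 to 480 in those labelled old PBS and 42.2 to 84.6 in those labelled old MIT-001, and 1 of the 10 stayed under 1 TPM in both old MIT-001 libraries. The 2 young PBS libraries differed from each other, with Gdf9, a growth factor of oocytes, at 73.3 and 9.51 TPM and Igkc, an immunoglobulin light chain gene, at 1340 and 174 TPM. On log2(TPM + 1), the 2 old PBS libraries correlated at 0.976 across genes, the 2 old MIT-001 libraries at 0.955 and the 2 young PBS libraries at 0.917, below several values between groups, which ran up to 0.940. The aligned bases implied by the deposited coverage were 6.34 to 7.14 gigabases per library, and the mean read depth over the 9 genes ran from 4.85 for Tgfb2 to 816 for Tgfb1.

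Promoters of 4 of the genes are shown first: Tgfbr1 and Ltbp2 had opposite orders of the PBS groups, Postn was the most variable of the 9, and Ltbp1 is the paralog against which Ltbp2 is set. Each is taken from the 250 bases before a RefSeq transcription start on GRCm38.p6, written 5′ to 3′ on the gene's strand, and those of Ltbp1 (201 bases) and Ltbp2 (183 bases) end where the gene begins in the deposited files. RefSeq promoters were matched for 7 of the 9 genes, and Tgfb3 and Thbs1 had no entry. Capitals mark matches on either strand to the Smad element core CAGAC, the AP-1 site TGANTCA, the GC box GGGCGG or the TATA box TATAAA, and no 2 matches overlapped.
Tgfbr1, chr4:47352972-47353221, plus strand: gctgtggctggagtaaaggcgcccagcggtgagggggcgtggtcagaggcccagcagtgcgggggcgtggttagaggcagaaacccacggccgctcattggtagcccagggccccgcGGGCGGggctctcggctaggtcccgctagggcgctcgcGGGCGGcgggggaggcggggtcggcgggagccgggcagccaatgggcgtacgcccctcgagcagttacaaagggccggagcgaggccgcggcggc
Ltbp1, chr17:75005279-75005479, plus strand: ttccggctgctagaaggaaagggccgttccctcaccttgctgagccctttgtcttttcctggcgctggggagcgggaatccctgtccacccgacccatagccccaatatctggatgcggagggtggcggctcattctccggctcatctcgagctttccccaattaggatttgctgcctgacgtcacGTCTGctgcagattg
Ltbp2, chr12:84876559-84876741, minus strand: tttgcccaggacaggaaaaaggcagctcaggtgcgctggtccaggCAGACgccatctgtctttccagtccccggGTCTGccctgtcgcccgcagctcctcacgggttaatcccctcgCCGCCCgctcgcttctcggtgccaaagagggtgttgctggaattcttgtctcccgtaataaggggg
Postn, upstream start, chr3:54359017-54359266, plus strand: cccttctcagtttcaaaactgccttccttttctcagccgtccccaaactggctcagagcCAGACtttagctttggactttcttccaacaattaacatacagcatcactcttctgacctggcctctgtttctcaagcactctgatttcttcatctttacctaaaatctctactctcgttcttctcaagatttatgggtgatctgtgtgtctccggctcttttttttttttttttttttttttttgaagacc
Postn, downstream start, chr3:54360857-54361106, plus strand: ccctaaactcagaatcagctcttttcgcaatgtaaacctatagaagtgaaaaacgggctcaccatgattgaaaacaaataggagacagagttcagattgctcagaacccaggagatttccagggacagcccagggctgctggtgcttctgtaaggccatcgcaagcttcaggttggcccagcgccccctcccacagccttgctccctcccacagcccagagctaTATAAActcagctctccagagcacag

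Tgfbr1 and Ltbp1 each have a second, downstream RefSeq start that is not printed. The Tgfbr1 window printed held 2 GC boxes and a GC content of 74.8%, against a median of 52.4% over 32851 RefSeq windows of the same length, while its downstream window had a GC content of 52.8%, no GC box and 1 Smad element core. Ltbp2 as printed held 2 Smad element cores and 1 GC box, and Ltbp1 held 1 Smad element core and no GC box. The downstream window of Ltbp1 held 2 Smad element cores and no GC box. At Postn, the upstream start had 1 Smad element core and the downstream start had a TATA box beginning 26 bases before the first transcribed base. No window of the 7 genes held the AP-1 site. Over all windows, 42.2% held CAGAC, 32.7% GGGCGG, 12.4% TATAAA and 6.75% TGANTCA. These matches describe letters only, and which start each library used was not measured.

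Of the 9 genes, none passed the test in any of the 3 comparisons when p-values were adjusted over all 16473 genes tested by limma (adjusted p under 0.05). That threshold was passed by 6 genes in old PBS against young PBS (0.0364% of genes), by 3 in old MIT-001 against old PBS (0.0182%) and by 0 in old MIT-001 against young PBS (0%). In that last comparison 2954 genes had an unadjusted p under 0.05. All 9 genes were tested, with at least 1 TPM in every library. The 95% intervals of Tgfbr1, Ltbp2 and Thbs1 excluded 0 in 2 comparisons each and that of Postn in 1, whose size rested on 1 library.

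**Figure D1:**
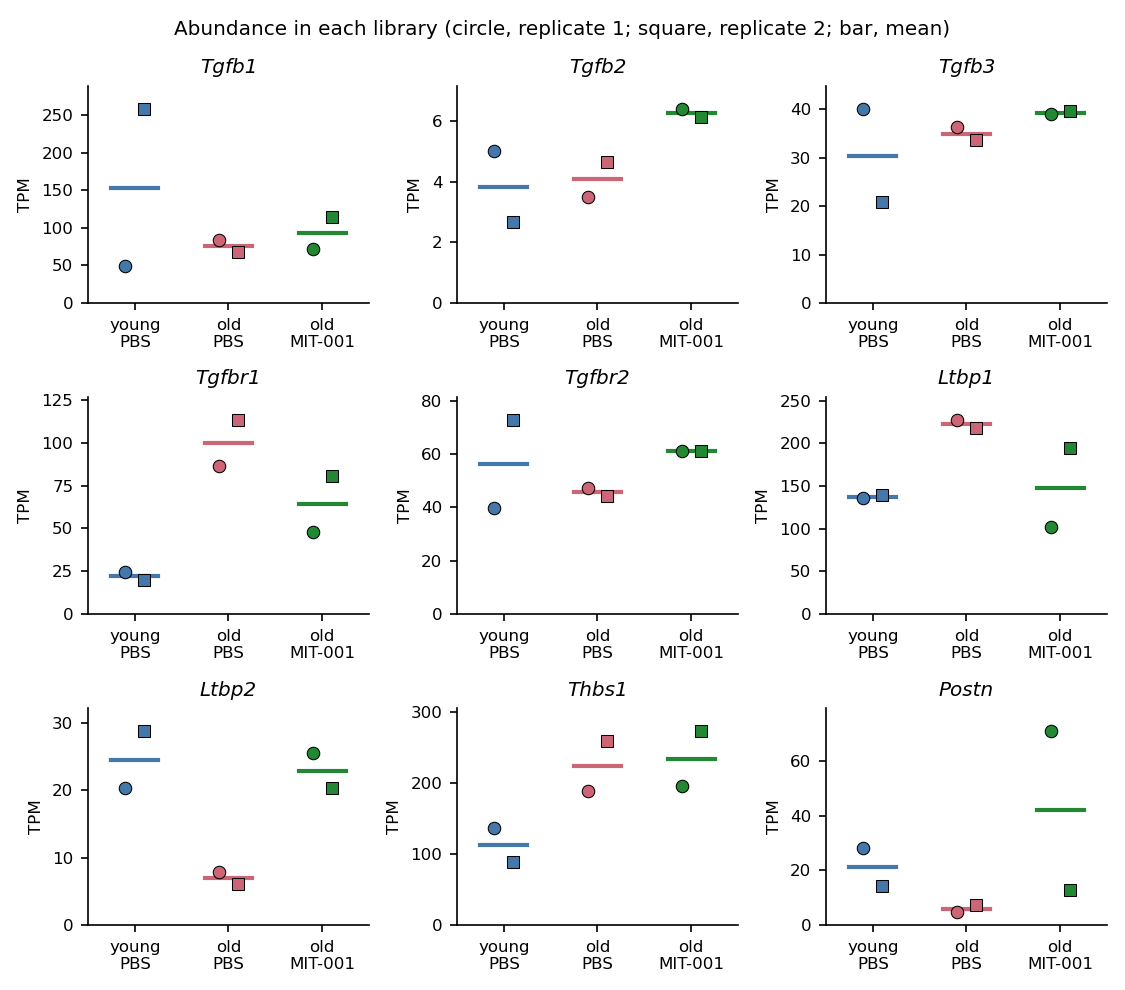
TPM of each of the 9 genes (vertical axis, from 0) in the 3 groups as labelled, with a circle for replicate 1, a square for replicate 2 and a bar at the group mean. Tgfbr1 sits lowest in young PBS (24.6 and 19.6 TPM), Ltbp2 lowest in old PBS (7.81 and 6.06 TPM), and single libraries stand out for Tgfb1 (258 TPM) and Postn (71.0 TPM).

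Tgfbr1 encodes the type I receptor kinase, the signalling arm of the receptor complex. It stood at 24.6 and 19.6 TPM in the young PBS libraries, at 86.5 and 113 TPM in the old PBS libraries, and at 48.2 and 80.9 TPM in the old MIT-001 libraries. Both young PBS libraries lay below all 4 others, and both old MIT-001 libraries lay between the 2 PBS groups, so no group overlapped another. Old PBS minus young PBS gave a log2 fold change of TPM + 1 of 2.12 ± 0.31 (SE), with a 95% interval of 1.36 to 2.88, an unadjusted p of 0.000447 and an adjusted p of 0.131. The estimate lay between 1.93 and 2.31 with any 1 library left out and between 1.80 and 2.16 under the other scalings, filters and pseudocount. Its adjusted p over the alternatives with 2 libraries in every group fitted ran from 0.127 to 0.251. For old MIT-001 minus young PBS it was 1.46 ± 0.31 (interval 0.71 to 2.22, adjusted p 0.161), and for old MIT-001 minus old PBS it was -0.66 ± 0.31 (interval -1.41 to 0.10, adjusted p 0.491). The last value was -1.02 without replicate 2 labelled old MIT-001 and -0.29 without replicate 1. Its span on mm10 is 47353222 to 47414926 of chromosome 4 (plus strand), where Gm32435 on the other strand overlaps it by 32925 bases at 0 to 0.184 TPM.

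Tgfbr2 encodes the type II receptor, which binds the ligand first. It was at 39.9 and 72.7 TPM in young PBS, at 47.5 and 44.2 TPM in old PBS, and at 61.0 and 61.2 TPM in old MIT-001. The old MIT-001 libraries were close to each other and above both old PBS libraries, while the young PBS libraries lay on either side of all the others. The log2 fold change was 0.41 ± 0.30 for old MIT-001 minus old PBS (interval -0.33 to 1.15, adjusted p 0.726) and -0.23 ± 0.30 for old PBS minus young PBS (interval -0.97 to 0.51, adjusted p 0.738). Old MIT-001 minus young PBS gave 0.18 ± 0.30 (interval -0.56 to 0.92, adjusted p 0.832). Tgfbr2 (chromosome 9, 116087695 to 116175363, minus strand) thus had another order of group means than Tgfbr1.

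Because both receptors are measured in the same library, their ratio does not depend on library scaling. Tgfbr2 per Tgfbr1 was 1.62 and 3.70 in young PBS, 0.549 and 0.391 in old PBS, and 1.27 and 0.757 in old MIT-001. Type II receptor RNA exceeded type I receptor RNA in both young PBS libraries, and the reverse held in both old PBS libraries. The groups did not overlap in any of the 3 comparisons, but with 2 libraries against 2 an exact two-sided permutation test cannot go below 0.333, which was its value in each comparison.

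Like Tgfbr1, all 10 granulosa genes were higher in old PBS than in young PBS, beside 68.1% of all genes. Their median log2 fold change was 1.40 against 0.23 over all genes. At an unadjusted p under 0.05 by limma there were 9 of them, all higher, beside 14.6% of all genes. Their summed TPM over 10 genes, none under 1 TPM throughout a group, was 3040 to 3305 in young PBS, 7302 to 9229 in old PBS and 2590 to 3798 in old MIT-001, with Amh, a hormone of growing follicles, at 95.04 and 40.1, at 123 and 213, and at 50.1 and 80.6 TPM. Inha, the inhibin alpha gene singled out after its values were seen, made up most of that sum. The mean log2(TPM + 1) of the list, in which each gene counts equally, was 6.58 and 6.38 in young PBS, 8.02 and 8.503 in old PBS and 6.68 and 7.15 in old MIT-001. On that mean both old MIT-001 libraries lay between the 2 PBS groups, while their summed TPM overlapped young PBS. Against young PBS, 6 of the 10 were higher in old MIT-001 and 4 lower (median 0.11), beside 69.3% of all genes higher. Inhba, an inhibin and activin subunit gene singled out after its values were seen, was at 11.9 and 8.66 TPM in young PBS. It was at 174 and 335 TPM in old PBS and 72.7 and 81.5 TPM in old MIT-001. Between the PBS groups it was the 1 gene of the list that passed (adjusted p 0.0433 by limma). Other follicle lists had the same direction between the PBS groups, with 10 of 10 oocyte genes higher in old PBS (median 1.97). So were 5 of 6 theca and interstitial genes (median 0.80). The part of granulosa, oocyte or theca RNA in the Tgfbr1 difference was not tested.

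Among the ligands, Tgfb1, the isoform best known from immune and fibrotic tissue, was the most abundant in every library. It was at 49.2 and 258 TPM in young PBS, at 84.0 and 68.0 TPM in old PBS, and at 72.1 and 114 TPM in old MIT-001. Replicate 2 labelled young PBS held the highest value and replicate 1 of that group the lowest, so the groups overlapped and no direction with age was fixed. The log2 fold change of old PBS minus young PBS was -0.57 ± 0.73 (interval -2.35 to 1.20, adjusted p 0.727). It was -1.76 without replicate 1 labelled young PBS (adjusted p 0.0458, where 7.12% of all genes were called) and 0.61 without replicate 2. Old MIT-001 minus old PBS gave 0.26 ± 0.73 (interval -1.51 to 2.04, adjusted p 0.965) and old MIT-001 minus young PBS -0.31 ± 0.73 (interval -2.09 to 1.46, adjusted p 0.885). The latter was 0.87 without replicate 2 labelled young PBS. Tgfb1 spans 25687002 to 25705077 of chromosome 7 on the plus strand.

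Tgfb2, an isoform prominent in development, was the least abundant of the 9 genes in every library. It was at 5.01 and 2.67 TPM in young PBS, at 3.51 and 4.66 TPM in old PBS, and at 6.39 and 6.14 TPM in old MIT-001. Both old MIT-001 libraries were above the 4 PBS libraries, but by a log2 fold change of only 0.52 ± 0.35 over old PBS (interval -0.33 to 1.38, adjusted p 0.679) and 0.63 ± 0.35 over young PBS (interval -0.23 to 1.49, adjusted p 0.421). Between the PBS groups the difference was 0.11 ± 0.35 (interval -0.75 to 0.96), and its sign turned with FPKM, median centring or quantile normalization (-0.03, -0.21 and -0.16). Tgfb2 lies on chromosome 1, minus strand, from 186622787 to 186709697.

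Tgfb3, the third isoform, was at 40.0 and 20.8 TPM in young PBS, at 36.2 and 33.5 TPM in old PBS, and at 38.9 and 39.5 TPM in old MIT-001. Apart from replicate 2 labelled young PBS, which was low, the libraries lay within 33.5 to 40.0 TPM. The log2 fold change was 0.26 ± 0.32 for old PBS minus young PBS (interval -0.52 to 1.05, adjusted p 0.716). Median centring and quantile normalization turned that sign, to -0.06 and -0.02. Old MIT-001 minus old PBS gave 0.17 ± 0.32 (interval -0.62 to 0.95, adjusted p 0.943) and old MIT-001 minus young PBS 0.43 ± 0.32 (interval -0.36 to 1.21, adjusted p 0.567). The gene spans 86056743 to 86079041 of chromosome 12 on the minus strand.

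As a share of the summed TPM of the 3 ligands, Tgfb1 made up 52.3% and 91.7% in young PBS, 67.9% and 64.0% in old PBS, and 61.4% and 71.5% in old MIT-001. Tgfb3 made up 42.4% and 7.40%, 29.3% and 31.6%, and 33.2% and 24.7% in the same order. The 4 libraries labelled old had a similar mix, and the 2 young PBS libraries formed the opposite ends of the range. Tgfb2 stayed between 0.948% and 5.45%. The groups overlapped for Tgfb1 and Tgfb3 in every comparison (exact two-sided permutation p = 1 for each, where 0.333 is the smallest that 2 against 2 allows).

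**Figure D2:**
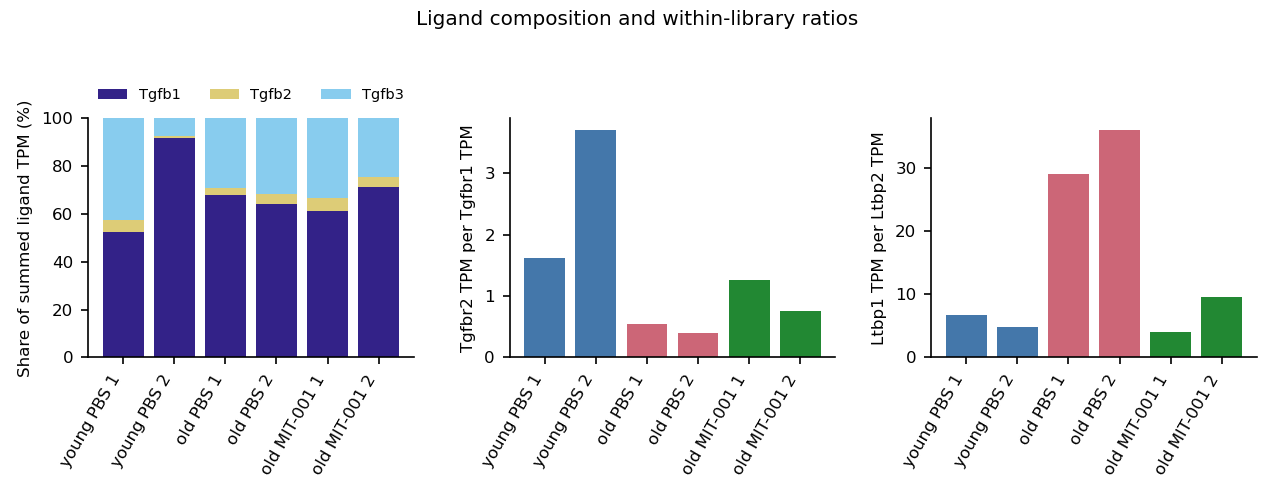
Left, share of each ligand (percent of the summed TPM of Tgfb1, Tgfb2 and Tgfb3) in each library as labelled. Middle and right, Tgfbr2 TPM per Tgfbr1 TPM and Ltbp1 TPM per Ltbp2 TPM, with 1 bar per library coloured by group. Tgfb1 reaches 91.7% in replicate 2 of young PBS, the receptor ratio is under 1 in both old PBS libraries (0.549 and 0.391), and the binding protein ratio is highest there (29.1 and 36.0).

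Markers of macrophages, which make Tgfb1 among other cells, had a summed TPM over 8 genes of 807 to 827 in young PBS, 138 to 162 in old PBS and 360 to 379 in old MIT-001, with none under 1 TPM throughout a group. The mean log2(TPM + 1) of the list was 5.58 and 6.09 in young PBS, 3.78 and 4.04 in old PBS and 5.09 and 5.12 in old MIT-001. In the young PBS libraries Csf1r, a macrophage receptor, was at 24.0 and 72.1 TPM, Cx3cr1 at 7.65 and 23.9 TPM and Cd68 at 54.8 and 84.8 TPM. There Mrc1 was at 10.1 and 18.0, Adgre1 at 15.3 and 18.4, and C1qa at 238 and 253 TPM. C1qb (242 and 179 TPM) and C1qc (215 and 178 TPM) went the other way. Platelets are rich in TGF-beta 1 protein, and their RNA was scarce: 4 of 6 platelet genes stayed under 1 TPM in each group, Gp9 was listed at 0 in 3 of 6 libraries, and Pf4 ran from 5.48 to 20.3 TPM. The part of either cell type in the Tgfb1 values was not tested.

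Of the binding proteins, Ltbp2 differed most between groups. LTBP2 resembles the other latent TGF-beta binding proteins but does not bind the latent ligand itself and is a component of elastic microfibrils. It was at 20.3 and 28.7 TPM in young PBS, at 7.81 and 6.06 TPM in old PBS, and at 25.4 and 20.3 TPM in old MIT-001. Both old PBS libraries lay below the other 4, and the young PBS and old MIT-001 libraries overlapped. Limma gave a log2 fold change of -1.67 ± 0.29 for old PBS minus young PBS (interval -2.37 to -0.97, unadjusted p 0.00105, adjusted p 0.155). It was 1.59 ± 0.29 for old MIT-001 minus old PBS (interval 0.89 to 2.29, unadjusted p 0.00138, adjusted p 0.126). These comparisons share the old PBS libraries, so their opposite signs are not separate evidence. Old MIT-001 minus young PBS gave -0.08 ± 0.29 (interval -0.78 to 0.62, adjusted p 0.927).

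The size of both Ltbp2 differences held with any 1 library left out, from -1.91 to -1.43 and from 1.43 to 1.75. The side of the threshold did not: for old MIT-001 minus old PBS limma's adjusted p was 0.0438 in a fit of the 4 old libraries alone. In that fit 2.76% of all genes were called. Over the alternatives with 2 libraries in every group fitted, the adjusted p ran from 0.0984 to 0.323 between the PBS groups. Between the old groups it ran from 0.0438 to 0.2. Ltbp2 spans 84783212 to 84876558 of chromosome 12 (minus strand) and overlaps D030025P21Rik on the other strand by 757 bases, a gene at 0.0361 to 0.335 TPM.

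Ltbp1, which covalently binds latent TGF-beta and targets it to the matrix, went the other way. It was at 136 and 139 TPM in young PBS, at 227 and 218 TPM in old PBS, and at 101 and 194 TPM in old MIT-001. Both old PBS libraries were the highest and the old MIT-001 libraries lay on either side of young PBS. Its log2 fold change was 0.69 ± 0.32 for old PBS minus young PBS (interval -0.09 to 1.48, adjusted p 0.315) and -0.66 ± 0.32 for old MIT-001 minus old PBS (interval -1.44 to 0.12, adjusted p 0.503). The second value was -1.13 without replicate 2 labelled old MIT-001 and -0.20 without replicate 1. Old MIT-001 minus young PBS was 0.03 ± 0.32 (interval -0.75 to 0.81, adjusted p 0.979), with a sign that FPKM and median centring turned (-0.12 and -0.38). Ltbp1 spans 75005480 to 75392512 of chromosome 17 on the plus strand.

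Within a library, Ltbp1 per Ltbp2 was 6.68 and 4.84 in young PBS, 29.1 and 36.0 in old PBS, and 3.99 and 9.56 in old MIT-001. The old PBS libraries stood apart from the other 4, and the exact two-sided permutation p was 0.333 against either group, the smallest possible. Young PBS and old MIT-001 overlapped (p = 1 by the same exact test).

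Thbs1 encodes thrombospondin 1, a matricellular glycoprotein of platelets and many other cells that can release TGF-beta from its latent form. It was at 137 and 89.0 TPM in young PBS, at 188 and 259 TPM in old PBS, and at 195 and 273 TPM in old MIT-001. Both young PBS libraries were below the 4 libraries labelled old, and the old groups overlapped. Its log2 fold change was 0.99 ± 0.32 for old PBS minus young PBS (interval 0.22 to 1.76, adjusted p 0.226) and 1.06 ± 0.32 for old MIT-001 minus young PBS (interval 0.29 to 1.83, adjusted p 0.176). The 2 values share the young PBS libraries. With any 1 library left out they ran from 0.68 to 1.30 and from 0.75 to 1.36. For old MIT-001 minus old PBS the value was 0.06 ± 0.32 (interval -0.71 to 0.83, adjusted p 0.985), and median centring turned its sign (-0.03). Thbs1 lies on chromosome 2, plus strand, from 118111876 to 118127133.

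Thbs1 can respond quickly to handling, so immediate early genes are given beside it. The summed TPM of 16 such genes was 1627 to 2971 in young PBS, 746 to 1168 in old PBS and 2754 to 4422 in old MIT-001, with none under 1 TPM throughout a group. Between the PBS groups 15 of the 16 were lower in old PBS and 1 higher, beside 68.1% of all genes higher. The median log2 fold change was -1.23 against 0.23 over all genes, and -0.77 or -1.80 without replicate 1 or 2 labelled young PBS. At an unadjusted p under 0.05 by limma 8 were lower, beside 3.55% of all genes. Among the 15 was Fos at 369 and 162 TPM in young PBS and 127 and 68.4 TPM in old PBS, the opposite direction to Thbs1. In old MIT-001 against old PBS all 16 were higher (median 1.85 against 0.03), beside 53.5% of all genes. At that unadjusted level there were 14, all higher, beside 7.45% of all genes. Atf3, a stress-induced factor, was at 202 and 177 against 18.8 and 11.3 TPM, while Thbs1 values overlapped. None of the 16 passed in either comparison, and their part in the Thbs1 values was not tested.

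Postn encodes periostin, a matrix protein made by activated fibroblasts, and was the most variable of the 9 genes. It was at 28.4 and 14.2 TPM in young PBS, at 4.61 and 7.49 TPM in old PBS, and at 71.0 and 12.9 TPM in old MIT-001. Both old PBS libraries were the lowest of the 6, and replicate 1 labelled old MIT-001 stood far above its partner. The log2 fold change for old MIT-001 minus old PBS was 2.20 ± 0.78 (interval 0.30 to 4.10, adjusted p 0.351), and it was 3.38 without replicate 2 labelled old MIT-001 and 1.02 without replicate 1. Old PBS minus young PBS gave -1.62 ± 0.78 (interval -3.52 to 0.28, adjusted p 0.332). Old MIT-001 minus young PBS gave 0.58 ± 0.78 (interval -1.32 to 2.49, adjusted p 0.779) and turned to -0.60 without replicate 1 labelled old MIT-001 (1.77 without replicate 2). Postn spans 54359267 to 54391041 of chromosome 3 on the plus strand.

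Several marker lists differed between the library with the high Postn value and the other old MIT-001 library. The summed TPM of 7 smooth muscle and pericyte genes was 2106 against 851, that of 6 B and plasma cell genes 962 against 84.0, and that of 6 mast cell genes 51.8 against 7.64. In young PBS and old PBS the muscle list summed to 640 to 1658 and 589 to 904, the B and plasma cell list to 186 to 1409 and 15.3 to 15.8, and the mast cell list to 18.0 to 95.8 and 15.4 to 17.3. Igkc, at 887 and 73.8 TPM in old MIT-001, 1340 and 174 TPM in young PBS and 9.50 and 10.6 TPM in old PBS, had the library order of Postn apart from its top pair. Over 8 stromal fibroblast genes the sums were 1306 to 1785 in young PBS, 1516 to 1549 in old PBS and 2058 to 2293 in old MIT-001. Within that list Dcn, a fibroblast proteoglycan, was at 808 TPM in the library with the high Postn value against 417 TPM in the other, while Col1a1 was at 206 against 305 TPM and Col3a1 at 414 against 425 TPM. No gene of the muscle and fibroblast lists was under 1 TPM throughout a group, while 2 of 6 B and plasma cell genes were in old PBS, as were 5 of 6 mast cell genes there and 1 in each other group. Their part in the Postn and Ltbp2 values was not tested.

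**Figure D3:**
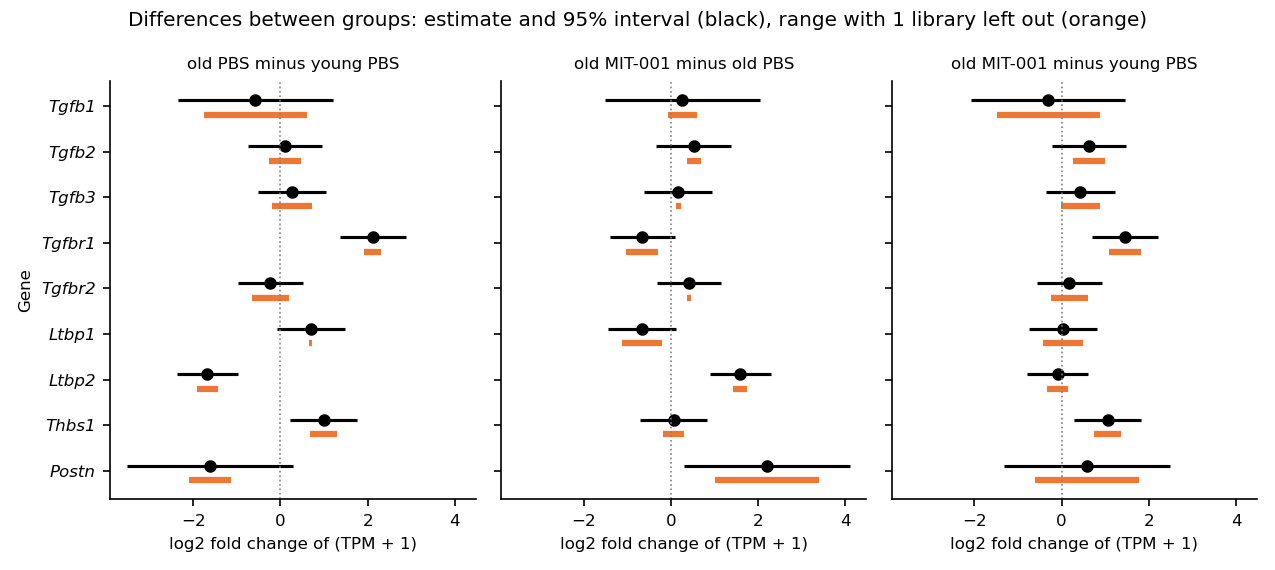
Log2 fold change of TPM + 1 (horizontal axis) for the 9 genes in the 3 comparisons as labelled. Black points and lines are limma estimates with 95% intervals, and orange bars span the estimates with any 1 library left out. The interval of Tgfbr1 lies above 0 against young PBS (1.36 to 2.88 in the left panel), that of Ltbp2 lies below and above 0 in the left and middle panels, and Tgfb1 crosses 0 in every panel.

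Read as a set, the 9 genes had no common direction. In old PBS against young PBS 5 were higher, beside 68.1% of all genes, with a median log2 fold change of 0.11 against 0.23 over all genes tested. At an unadjusted p under 0.05 there were 3 of the 9, beside 18.1% of all genes: Tgfbr1 and Thbs1 were higher (14.6% of all genes) and Ltbp2 lower (3.55%). Groups did not overlap for 5 of the 9, beside 49.1% of all genes, with 3 higher (38.1%) and 2 lower (11%).

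In old MIT-001 against old PBS 7 were higher, beside 53.5% of all genes, with a median of 0.26 against 0.03. At an unadjusted p under 0.05 there were 2 of the 9, beside 11.8% of all genes: Ltbp2 and Postn were higher (7.45% of all genes) and 0 were lower (4.36%). Groups did not overlap for 7 of the 9, beside 51.4% of all genes, with 5 higher (27.2%) and 2 lower (24.2%). In old MIT-001 against young PBS 7 were higher, beside 69.3% of all genes, with a median of 0.43 against 0.24. Tgfbr1 and Thbs1 were higher at an unadjusted p under 0.05, beside 17.1% of all genes, and 0 were lower (0.813%), which together make 17.9%. Groups did not overlap for 3 of the 9, beside 43.8%, with 3 higher (37.3%) and 0 lower (6.56%).

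Median centring moved the median of all genes from 0.23 to -0.09 and from 0.24 to -0.17 in the comparisons with young PBS, and from 0.03 to -0.06 between the old groups. With centring, the number of the 9 genes that were higher was 3, 6 and 5 in the order above. The 3 comparisons share libraries pairwise, so their counts are not separate evidence.

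The levels of the 9 genes can be compared because TPM is scaled for gene length. Thbs1 or Ltbp1 was the highest in 5 of 6 libraries and Tgfb1 in replicate 2 labelled young PBS, and Tgfb2 was the lowest in all 6. In old PBS the group means were 224 ± 50.5 TPM for Thbs1 and 223 ± 6.16 TPM for Ltbp1 (SD, n = 2), which did not differ beyond their spread, followed by Tgfbr1 at 99.8 ± 18.8 and Tgfb1 at 76.0 ± 11.3 TPM. Below them stood Tgfbr2 at 45.9 ± 2.29 and Tgfb3 at 34.9 ± 1.90 TPM, then Ltbp2 at 6.94 ± 1.24, Postn at 6.05 ± 2.04 and Tgfb2 at 4.09 ± 0.81 TPM, and Postn overlapped both of its neighbours. Tgfbr1 and Tgfb1 did not overlap but lay within their spread. In young PBS Tgfbr1 (22.1 ± 3.54 TPM) overlapped Ltbp2 (24.5 ± 5.97) and Postn (21.3 ± 10.0), and the order above them was unsettled, since Tgfb1 was at 153 ± 147 TPM and Thbs1 at 113 ± 34.0 TPM. In old MIT-001 the means were 234 ± 54.7 TPM for Thbs1, 148 ± 65.5 for Ltbp1, 93.3 ± 30.0 for Tgfb1, 64.5 ± 23.1 for Tgfbr1 and 61.1 ± 0.10 for Tgfbr2. They were 42.0 ± 41.1 TPM for Postn, 39.2 ± 0.44 for Tgfb3, 22.9 ± 3.64 for Ltbp2 and 6.26 ± 0.18 for Tgfb2, with Ltbp2 above Tgfb2 by more than their spread.

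Across the 6 libraries, the pairs of the 9 genes that were most alike on log2(TPM + 1) were Tgfbr1 with Thbs1 (Pearson r = 0.91) and Tgfb1 with Tgfbr2 (0.85). The most opposed were Ltbp1 with Postn (-0.94) and Tgfb1 with Tgfb3 (-0.85). These are descriptions over 6 libraries that share their groups and scaling. The 2 genes most like each member, among those with a mean of at least 5 TPM, were Leng1 and Rnf4 for Tgfbr1 (r = 0.997 for both, with Rnf4 at 75.6 to 121 TPM), Plekhh3 and Gpc1 for Tgfbr2, Anxa11 and Dhrs1 for Tgfb1, and Pdpn and Snx5 for Tgfb2. For Tgfb3 they were Sdhaf4 and Gstm5, for Ltbp1 Sox18 and Slc16a3, for Ltbp2 Csf1 and Dapk2, for Thbs1 Gpr27 and Orc2, and for Postn Ighj2 and Hook2. All 18 values of r were at least 0.98, chosen as the highest of 11951 or 11952 genes.

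The other genes of the pathway were read from lists chosen by function. No gene of any of these lists passed limma's adjusted threshold in any comparison. Among 13 Smads and their regulators, all 13 were higher in old PBS than in young PBS (median 0.47 against 0.23 over all genes), beside 68.1% of all genes. At an unadjusted p under 0.05 there were 6 of them, all higher, beside 14.6% of all genes. All 13 were also higher in old MIT-001 than in young PBS (median 0.61 against 0.24), beside 69.3% of all genes, with 7 at that level beside 17.1%. The 2 comparisons share the young PBS libraries, and their medians were 0.15 and 0.20 with centring and 0.19 and 0.32 with quantile normalization. Between the old groups 6 were higher and 7 lower (median -0.05, and 0.10 without replicate 2 labelled old PBS or 0.09 without replicate 1 labelled old MIT-001). Skil, which encodes the SMAD corepressor SnoN and is itself induced by the pathway, was at 15.7 and 9.94 TPM in young PBS, 37.4 and 44.6 TPM in old PBS and 33.9 and 45.1 TPM in old MIT-001. Its log2 fold change over young PBS was 1.63 (adjusted p 0.172) in old PBS and 1.57 (adjusted p 0.161) in old MIT-001, the smallest p of the list in both. Smad4, the common partner, was at 21.6 and 23.7, 32.7 and 42.3, and 34.8 and 35.5 TPM in the same order of groups. Smad7, the inhibitory Smad, was at 7.27 and 4.56, 8.65 and 8.18, and 11.7 and 10.2 TPM. Of the receptor-activated Smads, Smad2 was at 15.2 and 21.0, 18.7 and 21.7, and 27.5 and 29.5 TPM, and Smad3 at 29.6 and 55.5, 56.9 and 50.6, and 39.3 and 58.9 TPM. Smad6, another inhibitory Smad, had the smallest p between the old groups, with a mean of 9.89 ± 0.15 TPM in old MIT-001 against 5.69 ± 0.43 TPM in old PBS (SD, n = 2; log2 fold change 0.70, adjusted p 0.408).

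Transcriptional targets were higher in old MIT-001 in 11 of 12 members against old PBS (median 0.75 against 0.03) and in 12 of 12 against young PBS (median 0.94 against 0.24, and 0.53 with centring), beside 53.5% and 69.3% of all genes. At an unadjusted p under 0.05 there were 4 and 5 of them, all higher, beside 7.45% and 17.1% of all genes. In old PBS against young PBS 8 of 12 were higher (median 0.25 against 0.23), beside 68.1% of all genes. Centring and quantile normalization turned that median to -0.07 and -0.04, and leaving out replicate 1 of old PBS or of young PBS gave 0.03 or 0.45. Ccn2, the connective tissue growth factor gene, was at 55.6 and 25.2 TPM in young PBS, 120 and 170 TPM in old PBS and 80.5 and 129 TPM in old MIT-001, with a log2 fold change of 1.90 (adjusted p 0.210) for old PBS minus young PBS. Id1, a BMP and TGF-beta target, was at 78.5 and 97.6 TPM in old MIT-001, above 46.0 and 60.6 TPM in old PBS and 39.4 and 36.0 TPM in young PBS (log2 fold change over young PBS 1.20, adjusted p 0.161). Tgfbi, a matrix protein gene named for its induction by TGF-beta, was at 168 and 89.7, 113 and 121, and 133 and 180 TPM and overlapped in 2 of the 3 comparisons. Of the 12, 1 (Junb, an AP-1 subunit) is also in the immediate early list, and the part of handling in these values was not tested.

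Fibrosis effectors gave no common shift between the PBS groups, with 10 of 18 higher in old PBS (median 0.04 against 0.23), beside 68.1% of all genes. That median ran from -0.19 without replicate 1 labelled young PBS to 0.35 without replicate 2, and was -0.16 and 0.29 without replicates 1 and 2 labelled old PBS. It was -0.28 with centring, -0.08 with FPKM and -0.04 with quantile normalization. Col1a1, the main fibrillar collagen chain, was at 117 and 289 TPM in young PBS, 273 and 180 TPM in old PBS and 206 and 305 TPM in old MIT-001. Col3a1 was at 297 and 411, 448 and 461, and 414 and 425 TPM, and Fn1, the fibronectin gene, at 46.5 and 46.5, 68.9 and 57.6, and 49.6 and 76.8 TPM. Acta2, smooth muscle actin and a marker of myofibroblasts, was at 484 and 239, 407 and 274, and 658 and 331 TPM, so its groups overlapped. Of the 18, 12 were higher in old MIT-001 than in old PBS (median 0.33), beside 53.5% of all genes, and 14 than in young PBS (median 0.39, and -0.02 with centring), beside 69.3%. In each of these comparisons 3 of the 18 were higher at an unadjusted p under 0.05, beside 7.45% and 17.1% of all genes. Leaving out replicate 2 of either old group lowered the first median, to 0.14 for old PBS and 0.115 for old MIT-001, and the second was 0.18 without replicate 1 labelled young PBS and 0.20 without replicate 2 labelled old MIT-001. Pdgfra, a fibroblast receptor, had the smallest p between the old groups, at 110 and 97.1 TPM against 51.1 and 56.6 TPM (log2 fold change 0.93, adjusted p 0.245). Lox, the collagen crosslinking enzyme, had it against young PBS in old PBS (0.95, adjusted p 0.269) and in old MIT-001 (1.43, adjusted p 0.161).

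Genes of latency and activation were split, with 7 of 18 tested members higher in old PBS than in young PBS (median -0.28), beside 68.1% of all genes, and 13 of 18 higher in old MIT-001 than in old PBS (median 0.24), beside 53.5%. Leaving out replicate 2 labelled young PBS turned the first median to 0.26, so its direction rested on 1 library. Leaving out replicate 1 of that group gave -0.67, and centring gave -0.61. Itgb8, an integrin subunit that releases latent TGF-beta, was at 0.308 and 0.365 TPM in young PBS and 0.444 and 0.659 TPM in old PBS. It was at 3.04 and 3.15 TPM in old MIT-001, with log2 fold changes of 1.40 over old PBS and 1.62 over young PBS. Only the old MIT-001 libraries reached 1 TPM, so Itgb8 was tested only because it was high there. Its p, the smallest of the list in both comparisons of old MIT-001, and its place in the list's counts there are therefore not evidence of a difference. Itgb6, an epithelial subunit with the same activity, was too low to be tested, at 0.101 and 0.0913, 0.0286 and 0, and 1.02 and 0.872 TPM. Both are known from epithelia. The summed TPM of 7 surface epithelium genes, none under 1 TPM throughout a group, was 266 to 366 in young PBS, 168 to 177 in old PBS and 640 to 676 in old MIT-001, with Krt18, a keratin, at 142 and 150 TPM there against 23.1 and 22.5 TPM in old PBS. The summed TPM of 6 oviduct and ciliated cell genes was 52.6 to 140 in young PBS, 26.9 to 36.9 in old PBS and 375 to 600 in old MIT-001. Of these, 3 stayed under 1 TPM in old PBS and 1 in each other group. Pax8 was at 27.9 and 18.3 TPM in old MIT-001 against 0.585 and 0.178 TPM in old PBS. Foxj1, a gene of ciliated cells, was at 0.867 and 67.0 TPM in old MIT-001. The part of either kind of epithelial RNA was not tested. Itgav, the alpha subunit shared by these integrins, was at 16.7 and 21.4, 34.9 and 47.7, and 35.9 and 38.9 TPM (log2 fold change 1.07 for old PBS minus young PBS, adjusted p 0.212). Ltbp3 was at 126 and 371, 202 and 156, and 181 and 176 TPM, and Ltbp4 at 125 and 234, 109 and 79.2, and 179 and 185 TPM. Lrrc32, which displays latent TGF-beta on the cell surface, was at 10.8 and 29.0, 13.9 and 9.89, and 15.2 and 13.4 TPM.

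Among 6 co-receptors and other receptors, Tgfbr3, the betaglycan gene, was at 25.5 and 34.2, 35.4 and 43.9, and 44.9 and 41.0 TPM, above young PBS in both groups labelled old. Eng, the endothelial co-receptor endoglin, was at 73.2 and 219, 148 and 118, and 121 and 126 TPM, with young PBS on either side of the rest. Bambi, a pseudoreceptor that blocks signalling, had the smallest p of the list in all 3 comparisons, at 12.3 and 18.6 TPM in young PBS, 8.43 and 8.06 TPM in old PBS and 34.0 and 22.6 TPM in old MIT-001 (log2 fold change over old PBS 1.64, adjusted p 0.144).

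Of the relatives of Thbs1 and Postn, Thbs2 was at 10.5 and 8.23, 11.3 and 13.9, and 13.4 and 15.0 TPM, a log2 fold change of 0.39 (adjusted p 0.478) in old PBS over young PBS. Thbs4 was at 46.6 and 32.7 TPM in young PBS, 135 and 161 TPM in old PBS and 33.9 and 70.5 TPM in old MIT-001, with log2 fold changes of 1.89 (adjusted p 0.208) for old PBS minus young PBS and -1.57 (adjusted p 0.212) for old MIT-001 minus old PBS, which share the old PBS libraries. Tnc, the tenascin C gene, was at 53.1 and 1572 TPM in young PBS, 193 and 112 TPM in old PBS and 676 and 232 TPM in old MIT-001. Ccn4 had the smallest p of this list in old MIT-001 against young PBS (log2 fold change 1.31, adjusted p 0.200). Of the 10 genes, 6, 7 and 9 were higher in the 3 comparisons in the order above (medians 0.27, 0.27 and 0.48), beside 68.1%, 53.5% and 69.3% of all genes. Leaving out replicate 2 or 1 labelled young PBS gave a first median of 1.15 or 0.12, leaving out replicate 1 labelled old PBS gave -0.03, and centring gave -0.05. The second was 0.07, 0.17 and 0.60 when replicate 1 of old MIT-001, young PBS or old PBS was left out, and the third was -0.01 and 1.03 without replicates 1 and 2 labelled young PBS.

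**Figure D4:**
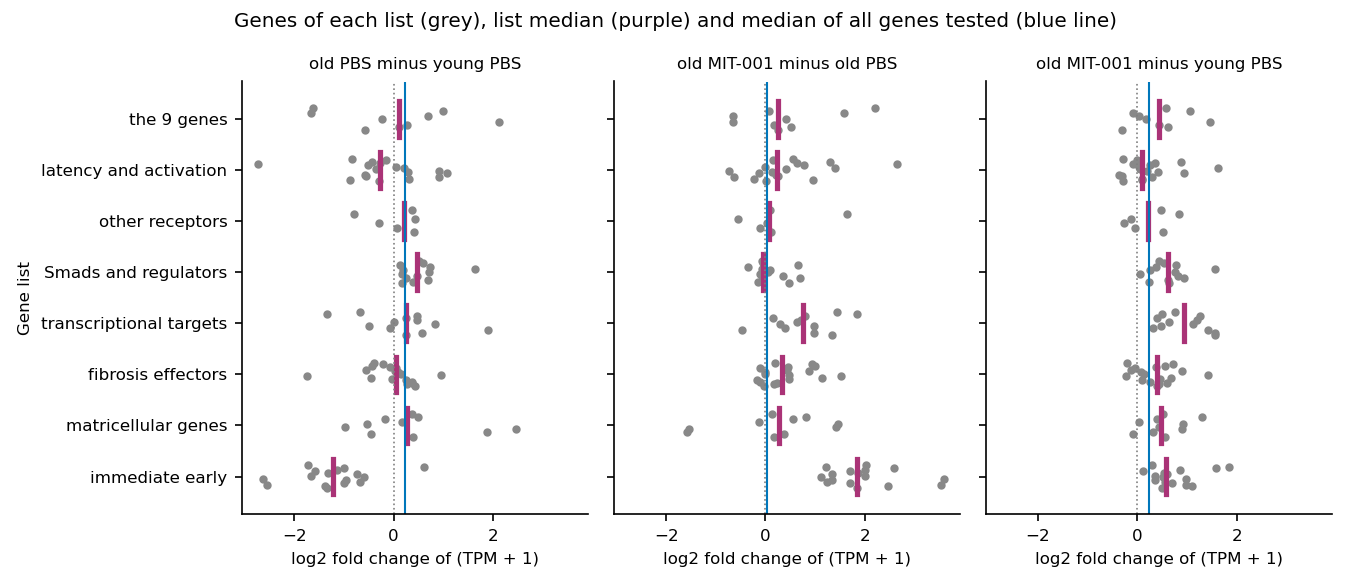
Log2 fold change of TPM + 1 (horizontal axis) of each tested gene (grey points) by list (vertical axis) in the 3 comparisons as labelled, with the list median in purple and the median of all genes tested as a blue line. Smads and their regulators lie above 0 in both comparisons with young PBS (medians 0.47 and 0.61, or 0.15 and 0.20 with centring), transcriptional targets have their highest medians with old MIT-001 (0.75 and 0.94), and immediate early genes lie on opposite sides in the left and middle panels (medians -1.23 and 1.85).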

How the data were processed

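Per the labels' protocols, TRIzol gave total RNA of ovary and a SMARTer mRNA kit the libraries. Per the submitters' processing notes, the authors ran Trimmomatic and used HISAT2 for alignment to mm10 and StringTie for gene abundance. Their versions, annotation and strand setting were not given in the sources used here. Deposited TPM and FPKM values are scaled for length and library, per the file headers, and the deposited coverage signal is mean read depth over a gene and was used for depth only. Read counts were not used here, so precision comes from the spread between libraries.

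Symbols came from RefSeq (GRCm38.p6) by Gene ID (98 rows per library unmatched), and TPM was summed per symbol. The 16473 genes reaching 1 TPM in 2 or more libraries were analysed as log2(TPM + 1), so low genes' changes are understated. limma 3.58.1 (R 4.3.3) was fitted to all 6 libraries with 1 mean per group and an intensity trend (3 residual and 3.12 prior degrees of freedom), two-sided, with Benjamini-Hochberg adjustment over all genes. Alternatives were a pseudocount of 0.1, other filters, FPKM, centring, quantile normalization, a replicate block, only the 4 libraries compared, and each library left out. Without a stated strand setting, overlapping antisense genes cannot be separated. The fit was tested on simulated data with the spread of these libraries and 200 changed genes, none of them low. At an adjusted p under 0.05 by limma it recovered 2 to 6% of log2 changes of 1 and 44 to 50% of changes of 2. A gene that did not pass is therefore not shown to be unchanged.

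The members and lists were chosen with earlier results of these data known. Named genes were the 9 members, a fixed set of pathway genes (1 of them is not reported here), the gene with the smallest p in each pathway list and comparison, the 2 genes most like each member, and a few cell markers.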

Additional observations from a re-analysis of the deposited data

How the results depend on the processing

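No gene of the 9 passed under the pseudocount, filter and scaling alternatives or the replicate block. Genes called over all genes in old PBS against young PBS, 6 as reported, numbered 1 with no filter, 11 with FPKM, 15 with centring, 17 with quantile normalization, 0 with only the 4 libraries compared and 0 to 1152 with 1 library left out (1152 without replicate 1 labelled young PBS, 15 without replicate 2, 0 without any other). In old MIT-001 against old PBS, 3 as reported, they numbered 0 with no filter, 1 with FPKM, 1 with centring, 442 with only the 4 libraries compared and 0 to 399 with 1 left out (399 and 395 without either young PBS library, 0 without any other). Of the 9 genes, 0 to 3 passed in the first comparison with 1 library left out (Tgfb1, Tgfbr1 and Ltbp2 without replicate 1 labelled young PBS), and 0 to 1 in the second (Ltbp2), where 1 also passed with only the 4 libraries compared. Fewer libraries in the young PBS group removed its spread from the shared estimate by construction. The replicate block gave 1 call in old PBS against young PBS and 0 in the other comparisons, and changed no call of the 9 genes. Deviations of same-numbered libraries correlated at 0.01, 0.24 and 0.18, so the numbers were not taken as pairs.

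With 1 library left out, old PBS minus young PBS ran from -1.76 to 0.61 for Tgfb1, from -0.25 to 0.46 for Tgfb2, from -0.19 to 0.72 for Tgfb3 and from -0.66 to 0.20 for Tgfbr2. Old MIT-001 minus old PBS ran from -0.068 to 0.59 for Tgfb1 and from -0.18 to 0.30 for Thbs1. Old MIT-001 minus young PBS ran from -1.49 to 0.87 for Tgfb1, from -0.026 to 0.88 for Tgfb3, from -0.25 to 0.60 for Tgfbr2, from -0.43 to 0.50 for Ltbp1, from -0.33 to 0.16 for Ltbp2 and from -0.60 to 1.77 for Postn. Of the other settings, FPKM, centring and quantile normalization gave -0.028, -0.215 and -0.157 for Tgfb2 and centring and quantile normalization -0.058 and -0.016 for Tgfb3 in old PBS minus young PBS. Centring gave -0.03 for Thbs1 in old MIT-001 minus old PBS. In old MIT-001 minus young PBS it gave -0.24 for Tgfbr2 and -0.38 for Ltbp1, and FPKM gave -0.12 for Ltbp1. The cause was not tested. The share of genes higher at an unadjusted p under 0.05 was 80.5% as reported and 36.2% with centring in old PBS against young PBS, 63.1% and 52.4% in old MIT-001 against old PBS, and 95.5% and 44.2% in old MIT-001 against young PBS.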

Other observations

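Replicate 2 labelled young PBS, the library with the highest Tgfb1, was also the highest of the 6 for several matrix and remodelling genes, which were singled out after their values were seen. Tnc was at 1572 TPM there and at 53.1 TPM in the other young PBS library. Spp1, the osteopontin gene, was at 501 against 19.5 TPM, Ccn5, a matricellular growth regulator, at 939 against 53.7 TPM, and Mmp9, a gelatinase, at 121 against 2.76 TPM. Loxl2, a collagen crosslinking enzyme, was at 157 against 37.6 TPM, Pdgfrb at 217 against 59.7 TPM and Lrrc32 at 29.0 against 10.8 TPM. Across the other 4 libraries these genes reached 676 TPM for Tnc, 231 TPM for Spp1, 422 TPM for Ccn5 and 34.6 TPM for Mmp9. Postn did not share this pattern, at 14.2 TPM in replicate 2 and 28.4 TPM in replicate 1.

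Comp, a matrix gene of the thrombospondin family also singled out after its values were seen, was at 64.5 and 64.6 TPM in old PBS, 21.4 and 21.5 TPM in old MIT-001 and 3.96 and 27.8 TPM in young PBS. Its log2 fold change was 2.46 (adjusted p 0.225) for old PBS minus young PBS and -1.55 (adjusted p 0.505) for old MIT-001 minus old PBS by limma. Both comparisons use the old PBS libraries.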
